A study of Mus musculus with 6 samples.

Results

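The guanylate-binding protein (Gbp) genes that lie together on mouse chromosome 5 were Gbp4, Gbp6, Gbp8, Gbp9, Gbp10 and Gbp11. They were chosen by symbol, with earlier results of these data known, and all 6 had a row among the 49492 genes of the deposited count table. The cells were HL-1, a mouse line grown from an atrial tumour of heart muscle cells that carried a viral oncogene, and every library came from cells given palmitic acid, a saturated fatty acid that loads cells with lipid. In 3 libraries the cells overexpressed ZNF593-AS, a human long noncoding RNA read from the strand opposite to ZNF593, and in 3 libraries they carried the vector alone. No library without palmitic acid was used here, so no value below is ascribed to the fatty acid.

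Guanylate-binding proteins are large GTPases of the dynamin superfamily that cells make in response to interferon, above all interferon gamma, through transcription factors that include IRF1. They gather on the membranes around intracellular microbes and on bacteria in the cytosol, where they help to break membranes and to start the inflammatory caspase response. In the mouse they are encoded by a cluster on chromosome 3 and a cluster on chromosome 5, and most of what is known of them comes from macrophages and fibroblasts rather than from heart muscle cells.

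The 6 genes lie within 332.3 kb of chromosome 5 on the minus strand of GRCm38. Gbp8 spans chr5:105014150-105139540, Gbp9 spans chr5:105077630-105139539 and Gbp4 spans chr5:105115767-105139586, so these 3 lie over each other and share 60 or 61 bases of their first exons. Gbp10 (chr5:105215699-105239533), Gbp6 (chr5:105270702-105293698) and Gbp11 (chr5:105323042-105346472) follow. GENCODE M21 lists 5 of them as protein coding and Gbp11 as a polymorphic pseudogene, a gene that is intact in some mouse strains only. The coding sequences are close relatives. Identity was taken over all columns of an end-to-end alignment, with gaps counted as differences. Gbp6 and Gbp10 were identical at 98.4% of columns, and the other pairs among Gbp4, Gbp6, Gbp9, Gbp10 and Gbp11 at 87.7% to 90.9%. Gbp8 matched the other 5 at 77.5% to 80.2%. Its coding sequence is shorter, at 1575 bases against 1833 to 1893 in the other 5. The gaps this leaves lower its values, which therefore do not show that its bases differ more. Against the Gbp genes of chromosome 3 the identity by the same measure was 59.4% to 73.8%, with the lowest value in a pair with Gbp8.

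How alike they are can be read in the 48 coding bases around the P-loop, the stretch that encodes the phosphate-binding loop of the GTPase domain. These are shown because they bear on how well reads of the 6 genes can be told apart. They come from the GENCODE M21 transcripts, with minus-strand positions on GRCm38 of chr5:105290859-105290906 for Gbp6, chr5:105235973-105236020 for Gbp10 and chr5:105136860-105136907 for Gbp4, and capitals mark the bases that differ from Gbp6.
Gbp6: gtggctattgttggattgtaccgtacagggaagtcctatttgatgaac
Gbp10: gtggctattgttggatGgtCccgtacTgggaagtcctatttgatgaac
Gbp4: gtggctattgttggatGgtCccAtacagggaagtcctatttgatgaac
The same stretches of Gbp8 (chr5:105050886-105050933), Gbp9 (chr5:105105686-105105733) and Gbp11 (chr5:105343768-105343815) had 0 differences from Gbp6. Gbp10 and Gbp4 differed from it at 3 bases each, and the chromosome 3 genes at 8 to 12.

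Such likeness limits how far each gene's count is its own. Of all 50-base stretches in the transcripts of Gbp10, 84.1% also occur in transcripts of other genes, and the share was 70.7% for Gbp6, 19.2% for Gbp11, 18.1% for Gbp8, 8.0% for Gbp9 and 7.8% for Gbp4. A further annotated gene, Gm43302 (chr5:105214907-105293695), takes 81.6% of its 4310 exon bases from exons of Gbp6 or Gbp10, and all of its 50-base stretches occur in other genes. How reads in these shared exons were assigned is not given in the sources used here. The separate values of Gbp6, Gbp10 and Gm43302 are therefore uncertain, while those of Gbp4 and Gbp9 rest mostly on sequence of their own.

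**Figure D1:**
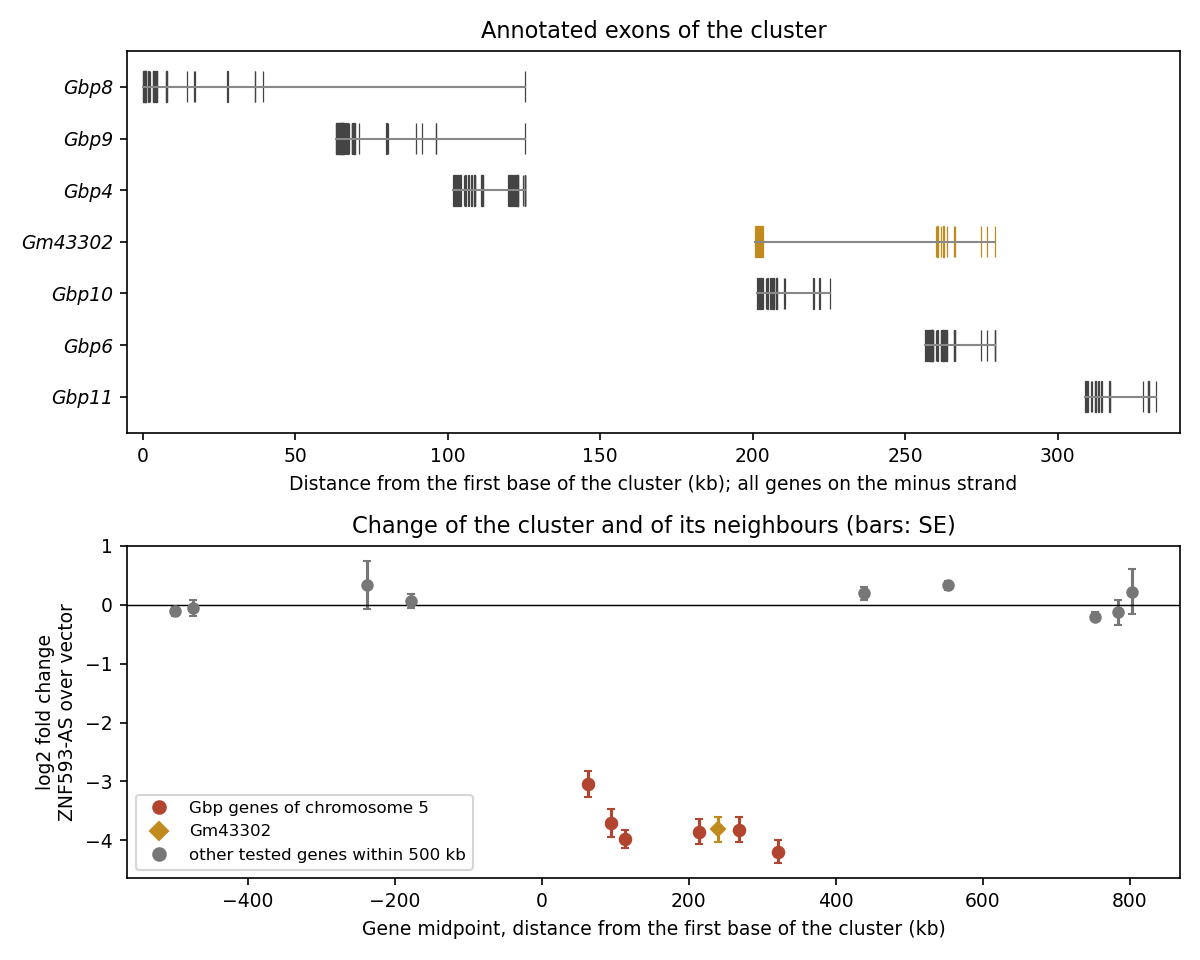
Top, the annotated exons (blocks) of the 6 Gbp genes and of Gm43302, against distance in kb from the first base of the cluster. Bottom, the log2 fold change of ZNF593-AS over vector (points, with SE bars) of these genes and of the other tested genes within 500 kb, against the midpoint of each gene; the 6 Gbp genes and Gm43302 lie between -4.19 and -3.04, and the others lie near 0.

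Gene counts summed to between 61042914 and 84547615 in the ZNF593-AS libraries and between 51470457 and 73529088 in the vector libraries. The titles group the libraries, but the treatment fields of ZNF593-AS replicates 2 and 3 give another name for the RNA (ZNF594-AS and ZNF595-AS), and the table has no row for the human RNA by which its level could be checked. Whether replicates were grown apart is not stated, so a p-value here speaks of the spread among these 6 libraries, which may be technical. Values are counts per 1e6 counts of a library (CPM) with trimmed mean (TMM) scaling, and changes are log2 fold changes of ZNF593-AS over vector with standard errors (SE). Each SE was worked back from the test, as the size of the log2 fold change divided by the square root of its quasi-likelihood F. It is thus an approximate value. A gene was called at an edgeR quasi-likelihood adjusted p under 0.05 over all 16473 tested genes. The marker genes go partly against the label of the line: 10 of 12 atrial cardiomyocyte markers averaged under 1 CPM, with Nppa, Sln and Kcna5 without a count and most of the summed level in Tnnt2. Bmp10, an atrial growth factor gene, was called lower, with 0, 0 and 2 counts in the ZNF593-AS libraries and 89, 62 and 140 counts in the vector libraries. Markers of immune cells were also low. T and NK cell markers summed to 0.0778 to 0.275 CPM in the ZNF593-AS libraries and 0.186 to 0.221 CPM in the vector libraries, with 6 of 6 markers under 1 CPM and Nkg7 and Klrb1c at 0. Macrophage markers summed to 9.11 to 10.4 CPM with ZNF593-AS and 7.54 to 8.80 CPM with vector, with 6 of 8 under 1 CPM, and Cd68 among them was called higher. Fibroblast markers summed to 252 to 294 CPM with ZNF593-AS and 320 to 329 CPM with vector, with Col1a1 and Col1a2 called lower, Pdgfra called higher and 3 of 7 under 1 CPM. Smooth muscle and pericyte markers summed to 204 to 288 CPM with ZNF593-AS and 171 to 198 CPM with vector, with Acta2 (0.45 ± 0.13) and Tagln (0.40 ± 0.12) short of the threshold and 2 of 6 under 1 CPM. Endothelial markers summed to 1.68 to 1.74 CPM with ZNF593-AS and 1.30 to 1.53 CPM with vector, with 6 of 6 under 1 CPM and Emcn at 0. The sums of the fibroblast, smooth muscle, endothelial and macrophage lists did not overlap between the groups, and the part of these markers in the results below was not tested.

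All 6 genes were tested, and all 6 were called lower in the ZNF593-AS libraries, where 6.16% of all tested genes were called lower. The fold changes ran from 8.25-fold lower for Gbp8 to 18.3-fold lower for Gbp11, and the median on the log2 scale was -3.83 for the 6 genes, against 0.01 for all tested genes. In each of the 6 genes the highest ZNF593-AS library stood below the lowest vector library, a pattern found in 13.4% of all tested genes. Each of the 6 was lower under every scaling, filter, tool and omission tried. In bulk RNA, fewer cells of a type that makes a transcript and less of it per cell cannot be told apart.

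**Figure D2:**
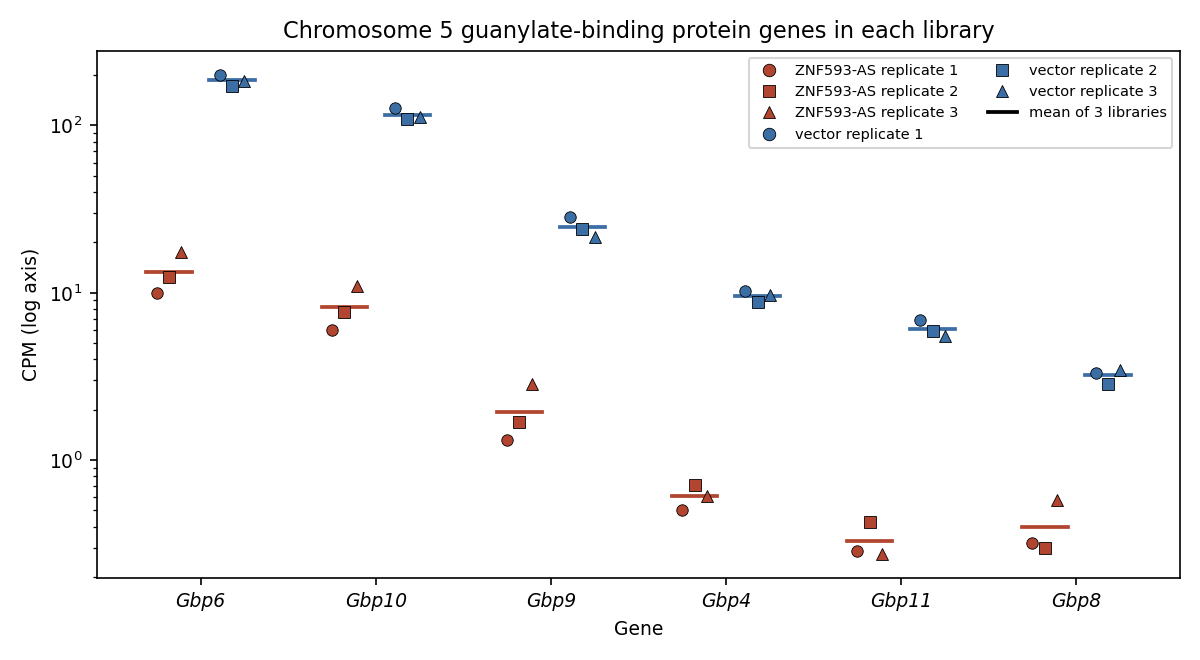
CPM on a log axis of the 6 genes in each library, with the 3 ZNF593-AS libraries left of the 3 vector libraries and bars at the means. The ZNF593-AS points lie below the vector points in every gene, and ZNF593-AS replicate 3 is the highest of its group in Gbp6, Gbp10, Gbp9 and Gbp8.

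Gbp6 drew the most counts of the 6. Its protein, like those of Gbp7 and Gbp10, has been tied to the defence of mouse macrophages against Listeria and mycobacteria. It had 869, 963 and 1087 counts (9.94, 12.5 and 17.6 CPM) in ZNF593-AS replicates 1 to 3, against 10780, 8775 and 13404 counts (201, 173 and 185 CPM) in vector replicates 1 to 3. The highest ZNF593-AS library stood far below the lowest vector library. The means were 13.3 ± 3.88 CPM with ZNF593-AS and 186 ± 13.7 CPM with vector (SD, n = 3 each), a log2 fold change of -3.82 ± 0.21 (edgeR adjusted p = 4.18e-05).

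Gbp10, its close copy, followed it library by library. It stood at 6.0, 7.65 and 10.9 CPM with ZNF593-AS and at 127, 109 and 112 CPM with vector. ZNF593-AS replicate 3 was again the highest of its group and vector replicate 1 of the other, with no overlap between them. The log2 fold change was -3.85 ± 0.21 (edgeR adjusted p = 4.42e-05), which is 14.4-fold lower. When the counts of Gbp6 and Gbp10 were summed into 1 gene before the fit, the change of the sum was -3.82 (edgeR adjusted p = 5.32e-05). This value does not depend on how reads were split between those 2 genes. It still depends on which reads were given to Gm43302, which was left out of the sum, and on how reads that match several genes were treated. The ratio of Gbp6 to Gbp10 counts within a library was 1.61 to 1.66 with ZNF593-AS and 1.57 to 1.65 with vector.

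Gbp9, whose protein gathers on the vacuole of Toxoplasma in mouse cells, came next. It had 115, 131 and 175 counts with ZNF593-AS, against 1513, 1226 and 1554 counts with vector. In CPM this was 1.32, 1.70 and 2.83 with ZNF593-AS, against 28.2, 24.2 and 21.5 with vector. Even the highest ZNF593-AS library, replicate 3, was well below the lowest vector library. The log2 fold change was -3.70 ± 0.24 (edgeR adjusted p = 3.96e-05), the widest standard error of the 6.

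Gbp4, also listed under the name Mpa2 for macrophage activation, held 44, 55 and 38 counts in the ZNF593-AS libraries and 555, 447 and 703 counts in the vector libraries. Its levels were 0.503, 0.713 and 0.614 CPM with ZNF593-AS, against 10.3, 8.83 and 9.72 CPM with vector. Replicate 3 did not stand out in this gene. The log2 fold change was -3.98 ± 0.15 (edgeR adjusted p = 4.6e-12), the smallest standard error of the 6.

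Gbp11, the polymorphic pseudogene, had counts in every library, though 19.2% of its 50-base stretches also occur in other genes. Whether some of these counts came from reads of those genes was not tested. The RefSeq annotation lists Gbp11 as a transcribed pseudogene. It had 25, 33 and 17 counts with ZNF593-AS and 370, 299 and 398 counts with vector, or 0.286, 0.428 and 0.275 CPM against 6.89, 5.91 and 5.5 CPM. Here ZNF593-AS replicate 3 was the lowest of its group. The log2 fold change of -4.19 ± 0.19 (edgeR adjusted p = 4.33e-11) was the lowest of the 6.

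Gbp8 had the lowest counts with vector and the smallest fitted change of the 6. It had 28, 23 and 36 counts with ZNF593-AS, against 179, 145 and 249 counts with vector, which is 0.320, 0.298 and 0.581 CPM against 3.33, 2.86 and 3.44 CPM. The groups did not overlap. The log2 fold change was -3.04 ± 0.22 (edgeR adjusted p = 3.23e-08). Counts of this size in the ZNF593-AS libraries leave a larger counting error than in Gbp6, and an 18.1% share of sequence common with other genes adds to the uncertainty of this level.

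On a scale per exon length, CPM per kb, the order of the genes could be compared. The length is that of all annotated exons of a gene together, from 2692 bases in Gbp11 to 7494 in Gbp4. Whether these cells use all of those exons was not tested. By CPM alone Gbp4 (mean 9.63 with vector) stood above Gbp11 (6.1), so the order of these 2 depends on the length. The levels of Gbp6 and Gbp10 also rest on counts that shared sequence makes uncertain. In the vector libraries Gbp6 (29.1 to 33.7) and Gbp10 (28.3 to 32.9) led with ranges that overlap, followed without overlap by Gbp9 (4.15 to 5.44), Gbp11 (2.04 to 2.56), Gbp4 (1.18 to 1.38) and Gbp8 (0.832 to 1.0). In the ZNF593-AS libraries Gbp6 (1.67 to 2.95) and Gbp10 (1.55 to 2.82) again led, and Gbp9 (0.254 to 0.546) came next. Below them Gbp11 (0.102 to 0.159) and Gbp8 (0.0866 to 0.169) overlapped, as did Gbp8 and Gbp4 (0.0672 to 0.0951). Gbp6 made up 44.2% to 44.7% of the summed CPM per kb of the 6 genes with ZNF593-AS and 43.8% to 45.3% with vector, while the sum itself was 3.74 to 6.66 with ZNF593-AS and 66.3 to 76.9 with vector. With ZNF593-AS, 3 of the 6 genes (Gbp6, Gbp9 and Gbp10) reached 1 CPM in each library, and with vector all 6 did.

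The proportions of the genes within the cluster were compared as ratios of counts in the same library. There were 31.0, 41.9 and 30.2 Gbp6 counts per Gbp8 count in the ZNF593-AS libraries, against 60.2, 60.5 and 53.8 in the vector libraries, and these ranges do not overlap. The mean ratios were 34.4 ± 6.54 with ZNF593-AS and 58.2 ± 3.78 with vector (SD, n = 3 each; 2-sided exact permutation p = 0.1, the smallest that 3 libraries against 3 allow, and 0.3 adjusted over the 6 ratios tested). Gbp6 per Gbp11 (34.8, 29.2 and 63.9 with ZNF593-AS, 29.1, 29.3 and 33.7 with vector; exact permutation p = 0.3) and Gbp9 per Gbp4 (2.61, 2.38 and 4.61 with ZNF593-AS, 2.73, 2.74 and 2.21 with vector; exact permutation p = 0.6) overlapped between the groups. In both, ZNF593-AS replicate 3 lay apart from the other libraries. Gbp6 per Gbp10 had an exact permutation p of 0.3, and Gbp6 per Gm43302, at 0.938 to 0.960 with ZNF593-AS and 0.949 to 0.962 with vector, one of 0.4.

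The ZNF593-AS libraries also differed among themselves in the level of the whole cluster. Its summed level was 18.4, 23.3 and 32.8 CPM in ZNF593-AS replicates 1 to 3 and 377, 325 and 338 CPM in vector replicates 1 to 3. ZNF593-AS replicate 3 was the highest of its group in 4 of the 6 genes, and in all 5 Gbp genes of chromosome 3. Without ZNF593-AS replicates 2 and 3, whose treatment fields give another name, the 6 genes were still called lower, with a median of -4.24 that rests on 1 ZNF593-AS library.

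The Gbp genes of chromosome 3 were measured for comparison, since they encode the most closely related proteins. All 5 were called lower, where 6.16% of all tested genes were, with a median log2 fold change of -4.37. Gbp2 and Gbp2b, whose proteins carry a lipid anchor at their tail, stood at 13.7 ± 3.05 CPM with ZNF593-AS against 235 ± 24.7 CPM with vector (-4.11 ± 0.17) and at 24.7 ± 5.24 CPM against 549 ± 79.2 CPM (-4.48 ± 0.18). Gbp3, the highest of the 11 Gbp genes per kb of exon (16.3 CPM per kb with ZNF593-AS and 336 CPM per kb with vector), had 53.3 ± 21.1 CPM with ZNF593-AS and 1098 ± 153 CPM with vector (-4.37 ± 0.34). Gbp5, which promotes inflammasome assembly, changed by -4.73 ± 0.28 and Gbp7 by -4.31 ± 0.18. The 6 genes of chromosome 5 thus spanned -4.19 to -3.04, and the 5 of chromosome 3 spanned -4.73 to -4.11.

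For each 100 CPM of chromosome 3 Gbp transcripts, the chromosome 5 genes gave 24.2, 25.1 and 23.5 CPM in the ZNF593-AS libraries and 15.6, 17.1 and 16.4 CPM in the vector libraries. The ratio was higher in each ZNF593-AS library than in any vector library, and being taken within a library it does not depend on scaling. Its means were 24.3 ± 0.802 with ZNF593-AS and 16.4 ± 0.751 with vector (SD, n = 3 each; 2-sided exact permutation p = 0.1, the smallest possible here, and 0.3 adjusted over the 6 ratios). In these libraries the chromosome 5 genes thus gave a larger part of the Gbp CPM with ZNF593-AS, by a difference that 3 libraries against 3 cannot carry past a threshold of 0.05. The test of this ratio was chosen after its values were seen. Most of the chromosome 5 sum comes from Gbp6 (mean 186 CPM with vector) and Gbp10 (116 CPM), whose counts shared sequence makes uncertain. The sums are also not divided by exon length.

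**Figure D3:**
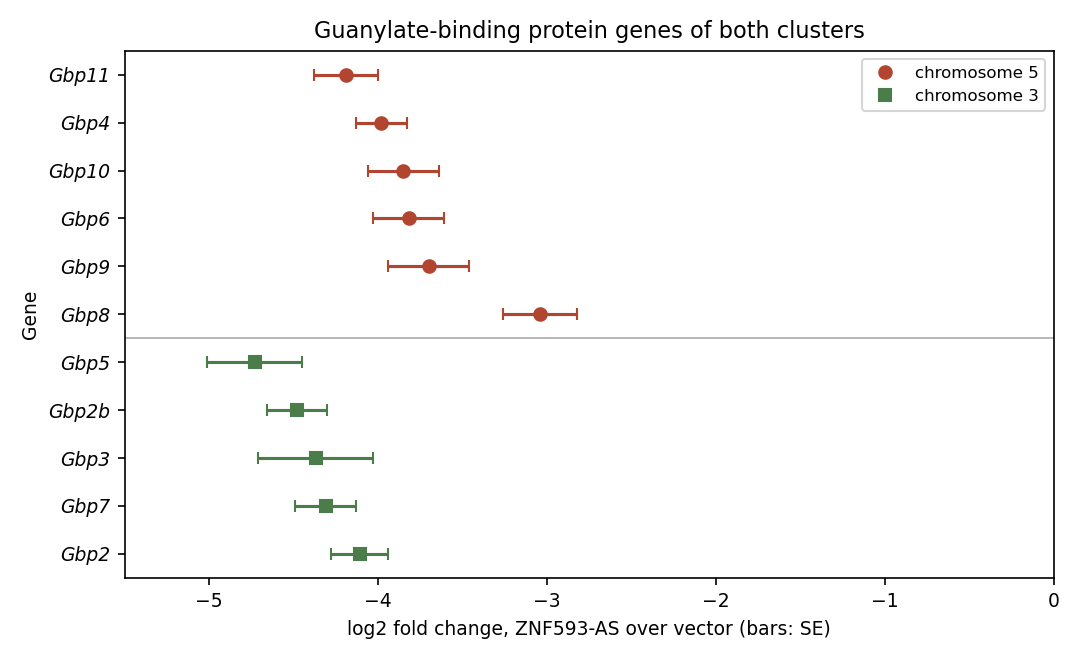
Log2 fold change of ZNF593-AS over vector (points, with SE bars) of the 6 chromosome 5 genes and the 5 chromosome 3 genes. Gbp8, at -3.04, is the least changed of the 11 and Gbp5, at -4.73, the most changed.

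**Figure D4:**
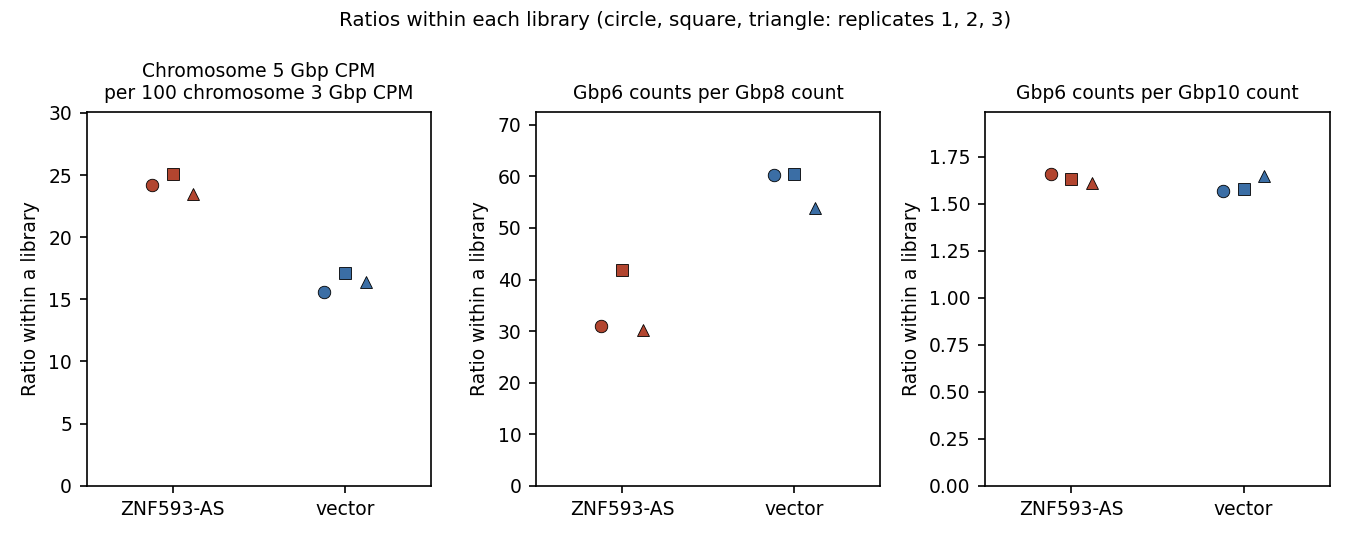
Ratios within each library, with ZNF593-AS left of vector: the summed chromosome 5 Gbp CPM per 100 chromosome 3 Gbp CPM, Gbp6 counts per Gbp8 count, and Gbp6 counts per Gbp10 count. The groups do not overlap in the first and second panels and overlap in the third.

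The genes around the cluster were read in the same fit. Within 500 kb of the outermost members the table held 19 other genes, of which 10 were tested, 3 had too few counts to test and 6 had no count. Of the 10, Gm43302, whose exons are largely those of Gbp6 and Gbp10, was called lower (-3.81 ± 0.21), 1 was called higher and 8 did not pass, where 8.4% of all tested genes were called in either direction and 2.23% higher. The gene called higher was Lrrc8c, a subunit of volume-regulated anion channels, at 13.3 ± 0.543 CPM with ZNF593-AS and 10.6 ± 0.0383 CPM with vector (0.33 ± 0.08, edgeR adjusted p = 0.0122), a call that ended without ZNF593-AS replicate 2 (0.31, edgeR adjusted p = 0.0721). Its relatives Lrrc8b (0.20, edgeR adjusted p = 0.358) and Lrrc8d (-0.20, edgeR adjusted p = 0.182) did not pass, and neither did Zfp951 (0.06), BC005561 (-0.11), D930016D06Rik (-0.05), Gm8258 (0.34), Rps15a-ps5 (-0.13) or Lrrc8dos (0.22).

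The genes whose profile over the 6 libraries lay nearest to the mean profile of the members were taken from the 16410 tested genes with a count in every library, leaving aside the Gbp genes among them. The measure was the root mean square distance in centred log2 CPM. The nearest was Gm43302 (0.056), which shares exons with Gbp6 and Gbp10. Next came Zbp1 (0.081), a sensor of Z-form nucleic acids, at 9.53 ± 2.26 CPM with ZNF593-AS and 123 ± 8.66 CPM with vector. Gm12185 (0.086, overlapping Tgtp1), Parp14 (0.103), Ifit1 (0.114) and Trim30d (0.125) were also among the nearest. The members themselves lay at 0.068 (Gbp6), 0.081 (Gbp10), 0.167 (Gbp9), 0.187 (Gbp4), 0.364 (Gbp11) and 0.415 (Gbp8) from their own mean, so Zbp1 was as near to it as Gbp10. This likeness describes 6 libraries that fall into 2 groups, in which any gene with a similar fold change lies near.

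Other genes of the pathway were read by list. Of the 16 tested GTPases outside the Gbp family that interferon induces, 16 were called lower, where 6.16% of all tested genes were. Among them are the immunity-related GTPases that act with Gbp proteins on vacuoles. The median log2 fold change of the 16 was -4.17, with a range of -5.92 (Mx1) to -1.61. Tgtp1, an immunity-related GTPase, had 1.10 ± 0.165 CPM with ZNF593-AS and 19.3 ± 1.63 CPM with vector (-4.14 ± 0.12), though 81.2% of its 50-base stretches occur in other genes. Ifi47, another of this group, had 0.620 ± 0.169 CPM with ZNF593-AS against 17.0 ± 1.07 CPM with vector (-4.80 ± 0.14), and 9930111J21Rik2 changed by -2.59 ± 0.09. The 6 chromosome 5 genes lay inside this range. Stretches found in other genes made up 59.8% of 9930111J21Rik2 and 97.8% of Gm4070, the gene at -1.61. The share was 99.2% for Gvin1, 86.6% for Tgtp2 and 83.2% for 9930111J21Rik1, so the 16 are not all separate measurements. F830016B08Rik had only 3, 0 and 0 counts with ZNF593-AS and 29, 18 and 21 with vector. With only genes of at least 1 CPM on average tested, 15 of the list were called lower. The 10 dynamin-related GTPases outside the interferon response, relatives by fold that shape cell membranes, had a median of 0.00. In this list 0 were called by edgeR, a count near the 8.4% of all tested genes called in either direction. In that list edgeR's unadjusted p under 0.05 held for 0 lower and 1 higher gene, Dnm1 (0.17 ± 0.07, edgeR adjusted p = 0.172), and DESeq2 and limma-voom called 0.

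The receptors through which cells sense interferon did not pass the test, while several factors downstream of them did. Of 16 tested genes of interferon receptors and signalling, 8 were called lower and 0 higher by edgeR, DESeq2 and limma-voom. Over all tested genes edgeR called 6.16% lower and 2.23% higher. At an unadjusted p under 0.05 edgeR had 9 of the list lower and 0 higher, and the median of the list was -0.19. The receptor subunits Ifngr1 (23.4 ± 2.28 CPM with ZNF593-AS, 25.6 ± 1.23 CPM with vector; -0.13 ± 0.08), Ifngr2 (-0.03 ± 0.07), Ifnar1 (0.03 ± 0.06) and Ifnar2 (-0.10 ± 0.06) did not pass. Downstream of them, Stat2 changed by -2.69 ± 0.13, Irf1 by -2.11 ± 0.07, Irf9 by -1.50 ± 0.10 and Irf2, which counters Irf1, by -0.75 ± 0.06. Also called lower were Socs1, an inhibitor that interferon itself induces (-1.30 ± 0.15), and the receptor kinases Jak2 (-0.45 ± 0.07) and Jak1 (-0.20 ± 0.06, edgeR adjusted p = 0.0404). Beside the receptor subunits, Tyk2 (0.24 ± 0.12), Batf2 (0.02 ± 0.08), Socs3 (0.09 ± 0.06) and Ptpn2 (-0.19 ± 0.06, edgeR adjusted p = 0.0925) of the list did not pass. The call of Jak1 ended in 10 of 16 alternatives (edgeR adjusted p of 0.0641 to 0.477 there), among them the omission of any single library, and 7 genes of the list were then called lower.

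Genes of other proteins that act with Gbp proteins were read in the same way. Of 13 tested genes of Atg8 conjugation and cargo receptors, the machinery that guides mouse Gbp proteins to vacuoles, 1 was called lower and 0 higher. These counts are near the shares over all tested genes, 6.16% lower and 2.23% higher, and the median of the list was -0.06. The gene called lower was Optn, an autophagy receptor, at 202 ± 9.44 CPM with ZNF593-AS and 253 ± 18.0 CPM with vector (-0.32 ± 0.07, edgeR adjusted p = 0.00559). It overlaps 4930551O13Rik on the opposite strand. Map1lc3a stood at 0.24 ± 0.07 (edgeR adjusted p = 0.052), was the 1 gene of the list higher at an unadjusted p under 0.05, and was called by limma-voom but not by DESeq2. Atg5 (-0.09 ± 0.06), Atg7 (0.13 ± 0.08) and Atg16l1 (-0.15 ± 0.08) did not pass. Of 8 tested genes of inflammatory caspases and pyroptosis, 4 were called lower and 1 higher (median -0.29), where 6.16% and 2.23% of all tested genes were. Among those called lower was Gsdmd, which encodes the pore-forming gasdermin D, at 14.8 ± 0.818 CPM with ZNF593-AS and 20.4 ± 1.48 CPM with vector (-0.46 ± 0.08). The other 3 called lower were Casp4 (-0.71), Casp1 (-1.09) and Il18 (-1.50), and the gene called higher was Nek7 (0.28), whose call ended without ZNF593-AS replicate 2 (edgeR adjusted p = 0.0585) or vector replicate 1 (edgeR adjusted p = 0.0627). None of the 6 CaaX prenylation enzymes, which attach the lipid tail of some chromosome 3 Gbp proteins, was called by edgeR, DESeq2 or limma-voom. This is near the share over all tested genes, of which edgeR called 8.4% in either direction. In edgeR 0 of the 6 had an unadjusted p under 0.05, and the smallest p was that of Zmpste24 (-0.14 ± 0.08, edgeR adjusted p = 0.407).

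**Figure D5:**
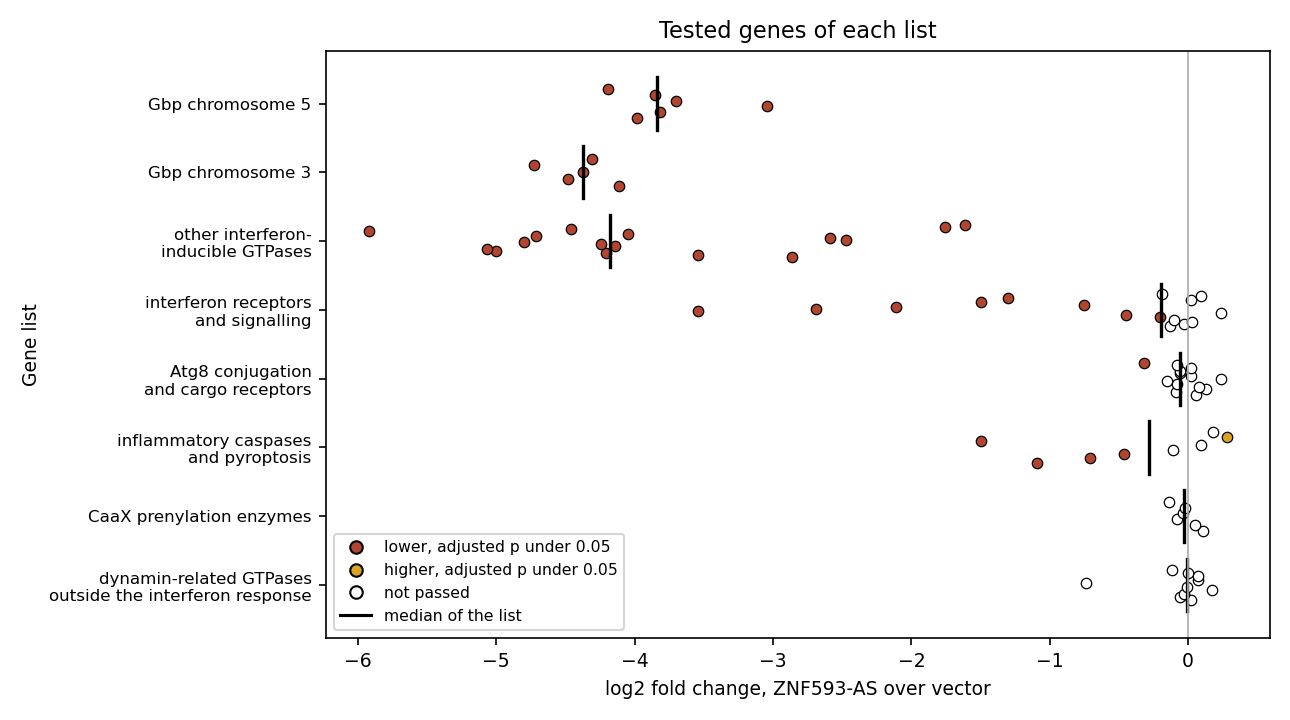
Log2 fold change of ZNF593-AS over vector of each tested gene (points) in the 8 gene lists, filled where called and open where not, with a bar at the median of each list. The chromosome 5 genes lie with the chromosome 3 genes and the other interferon-inducible GTPases, and the conjugation, prenylation and dynamin-related lists have medians near 0, while the receptor and signalling list has a median of -0.19 and some genes far lower.

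Over all genes, 1383 of 16473 were called, 1015 of them lower and 368 higher, so 73.4% of the calls were lower and 26.6% higher. With library totals in place of TMM factors the split was 811 lower and 1284 higher (38.7% and 61.3%), and the median change of all tested genes was 0.10 in place of 0.01. The 6 chromosome 5 Gbp genes stood at ranks 41 to 112 from the lowest fold change of all tested genes, with 113 genes at -3 or below.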

How the data were processed

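Total RNA of 3 ZNF593-AS and 3 vector libraries was measured. The values are whole-number counts per gene, deposited by the authors without normalization in a single table that also lists exon coordinates and lengths, per the file headers. The submitters' processing notes list GRCm38, TopHat2, Bowtie2, cutadapt 1.2.1 and CASAVA and give them no roles; the sources used here name no counting tool and no setting for strand or overlap. Between 365 and 492 genes per library had a count of 1 and 2160 to 2359 a count of 2, an excess of even values that would arise if each mate of a pair was counted, in which case a total overstates the number of fragments. 26 gene names turned into dates were restored, and 86.9% of genes matched GENCODE M21 by symbol and coordinates.

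Genes kept by filterByExpr (minimum count 10, minimum total 15) were tested with edgeR 4.0.16 in R 4.3.3 (TMM factors, quasi-likelihood test with robust dispersions, 2-sided, p-values adjusted by Benjamini-Hochberg over all 16473 genes), with all 6 libraries in 1 fit. The biological coefficient of variation was 7.69%. DESeq2 1.42.0 and limma-voom (limma 3.58.1) were alternatives, beside other scalings and filters, halved counts, each library left out, a replicate block, ZNF593-AS replicates 2 and 3 left out, and Gbp6 summed with Gbp10. Within-library ratios were compared by exact permutation tests chosen after their values were seen. Each pair of libraries differed by more than sampling noise, with a chi-square per gene of at least 10.7 on halved counts. In 5 simulations of this comparison with 200 changed genes among 16226 to 16263, the test recovered 68.4% of the genes set to a 1.5-fold change and 81.4% of those set to a 2-fold change, with 9.06% false calls (nominal 5%).

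The members and all gene lists were chosen with earlier results of these data known. Named by rule are the members, the chromosome 3 Gbp genes, the 8 nearest profiles outside the Gbp family, and tested neighbours within 500 kb. The rule also names up to 4 called genes per list and direction by smallest p, or the gene of smallest p where none was called. List members outside this rule (the receptor genes, Jak1, Jak2, Tyk2, Socs1, Socs3, Batf2, Ptpn2, Map1lc3a, Atg5, Atg7 and Atg16l1) were named after their values were seen. Values of some genes that the rule names are not reported here.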

Additional observations from a re-analysis of the deposited data

How the results depend on the processing

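The call of each chromosome 5 Gbp gene and its direction held under all 16 alternatives (15 for Gbp10, which 1 alternative summed with Gbp6). Over these the log2 fold change ran from -4.25 to -3.85 for Gbp4, -4.23 to -3.64 for Gbp6, -3.37 to -2.88 for Gbp8, -4.22 to -3.46 for Gbp9, -4.28 to -3.66 for Gbp10 and -4.43 to -4.08 for Gbp11, and the largest edgeR adjusted p was 0.00646, for Gbp9 with the replicate block. The replicate block, with libraries paired by number, called 997 genes lower and 334 higher, 1331 in all, and 6 of the 6 members lower. Same-numbered libraries did not deviate together over all tested genes (correlations of -0.029, -0.03 and 0.049). This check cannot exclude a pairing that shows in few genes, and the labels do not state one.

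With library totals, 2095 genes were called, 1284 of them higher, along with 1 gene higher in the conjugation list, 2 in the pyroptosis list and 1 in the dynamin-related list (Dnm1, 0.26, edgeR adjusted p = 0.0263); the medians of the conjugation and prenylation lists were then 0.03 and 0.07. With no filter 561 genes were called higher, and 1 gene of the conjugation list was higher with no filter, with genes of at least 1 CPM, with limma-voom and on halved counts. Leaving out single libraries gave 138 to 394 genes called higher, with 138 without ZNF593-AS replicate 2, 170 without ZNF593-AS replicate 3, 209 without vector replicate 1 and 234 without vector replicate 2; in the pyroptosis list 0 to 1 gene was then higher. Without ZNF593-AS replicates 2 and 3, 675 genes were called, 630 lower and 45 higher, with 0 lower in the conjugation list and 0 higher in the pyroptosis list, the lone ZNF593-AS library being assumed to vary like the vector libraries. The cause of these shifts was not tested. Of 701 values of 44 genes named by rule, 6 lost their call and 7 changed sign, none of them of a Gbp gene; the changes of sign were in 4 neighbouring genes that were not called in any direction (D930016D06Rik, Zfp951, Rps15a-ps5 and Lrrc8dos). Jak1, outside the rule, lost its call in 10 of 16 alternatives. Counting error limits Gbp8, Gbp11 and Gbp4 most, with 17 to 55 counts in the ZNF593-AS libraries.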
